A study of Mus musculus with 10 samples.

Results

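Transcript levels of 10 tubulin isotype genes were examined in mouse kidney. They comprise 4 alpha-tubulin genes (Tuba1a, Tuba1b, Tuba1c and Tuba4a) and 6 beta-tubulin genes (Tubb2a, Tubb2b, Tubb3, Tubb4b, Tubb5 and Tubb6). They were taken by gene symbol from the 55359 genes of the deposited table, and the list was drawn up with their response in these libraries and their shares of total tubulin already known. Their levels, differences and shares are therefore a description, without a test. RNA came from kidney tissue of male mice, 5 after sham surgery and 5 after 30 min of ischaemia and 24 h of reperfusion (ischaemia-reperfusion injury, IRI). The sources used here give no strain, age, diet or time of sham sampling. The series as a whole concerns dietary methionine and kidney injury, and the labels name no diet for these libraries. The labels do not say outright that the replicates are separate animals, so each p-value reflects only how far these libraries differ among themselves, which may be technical.

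Microtubules are hollow polymers of alpha-beta tubulin dimers. They carry vesicles and organelles, separate chromosomes, form the axoneme of the primary cilium and, in tubule epithelium, run along the apical-basal axis and serve the traffic of membrane transporters. The isotypes are nearly alike over the folded body of the protein and differ mainly in the acidic tail at the C terminus, where enzymes add or remove tyrosine, glutamate and glycine. Cells also sense free tubulin dimers: the factor TTC5 binds the first residues of a nascent tubulin chain on the ribosome and leads to decay of the translated mRNA.

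The coding sequences of these genes are alike over long stretches. Shown first are the first 24 coding bases of a gene of each chain from GENCODE transcripts (release M21, GRCm38), with the 4 codons read by the autoregulation factor in capitals (Met-Arg-Glu-Cys in alpha, Met-Arg-Glu-Ile in beta).
Tuba1c: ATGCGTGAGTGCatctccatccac
Tuba4a: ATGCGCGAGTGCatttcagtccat
Tubb2a: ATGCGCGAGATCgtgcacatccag
Tubb5: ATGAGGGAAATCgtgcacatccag
All 4 alpha genes encoded MREC and all 6 beta genes MREI, so the recognised start is shared by every gene described here.

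The last 60 coding bases before the stop codon are shown next for Tuba4a and 4 beta genes, since this tail distinguishes the isotypes, with glutamate codons in capitals.
Tuba4a: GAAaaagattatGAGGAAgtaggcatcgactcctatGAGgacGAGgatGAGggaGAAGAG
Tubb2a: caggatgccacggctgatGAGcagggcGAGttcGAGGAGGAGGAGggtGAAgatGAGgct
Tubb2b: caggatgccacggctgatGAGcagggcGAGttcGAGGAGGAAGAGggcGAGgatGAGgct
Tubb4b: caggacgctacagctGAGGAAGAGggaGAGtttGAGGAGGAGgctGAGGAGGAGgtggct
Tubb5: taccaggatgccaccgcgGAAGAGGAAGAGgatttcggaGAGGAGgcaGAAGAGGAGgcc
Tuba4a ends in glutamate and is made without the terminal tyrosine of the tyrosination cycle. The 20-residue tail of Tubb4b has 10 glutamates. The encoded proteins of Tuba1a and Tuba1b differ at 2 of 451 residues, and those of Tubb2a and Tubb2b at 2 of 445. Tuba1c differs from each of Tuba1a and Tuba1b at 8. Tuba4a differs from the other 3 alpha proteins at 17 to 21 residues, and Tubb4b from Tubb5 at 11. All 4 alpha proteins have lysine at residue 40, the acetylation site inside the microtubule, where the 6 beta proteins have serine.

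At the length of 1 read (150 bases), 54.7% of the windows of the Tuba1a transcript occurred letter for letter in another gene. The share was 57.9% for Tuba1b, 46.7% for Tuba1c, 27.9% for Tubb2a, 20.1% for Tubb2b and 16.8% for Tubb4b, the last through a pseudogene. It was 0% for Tubb3, Tubb5 and Tubb6. The sources used here do not say how reads that fit several genes were counted, so the split among Tuba1a, Tuba1b and Tuba1c, and between Tubb2a and Tubb2b, is uncertain. Sums over each set are given beside the single genes for that reason.

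In the deposited coordinates (GRCm39), Tuba1b lies on chromosome 15 from 98829306 to 98832446, Tuba1a from 98847718 to 98851584 and Tuba1c from 98927772 to 98935991. Tubb2a (chromosome 13 from 34258257 to 34261990) and Tubb2b (from 34310731 to 34314449) stand 48.7 kb apart. Tuba4a lies on chromosome 1 from 75190872 to 75196509, Tubb4b on chromosome 2 from 25112172 to 25114714, Tubb5 on chromosome 17 from 36144813 to 36149198, Tubb3 on chromosome 8 from 124138163 to 124148754 and Tubb6 on chromosome 18.

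Library totals ranged from 13147899 to 18603272 counts. IRI replicate 1 stood apart from the other IRI libraries: mitochondrial rRNA took 2.31% of its counts against 0.214% to 0.450%, and Slc34a1, a phosphate transporter of the proximal tubule, was at 584 FPKM against 72.0 to 193 (sham mean 1253). The kidney identity of the tissue was clear in the markers, all 9 of which passed the filter, with Lrp2 (98.3 FPKM), Cubn (20.5) and Slc34a1 high in sham. Lrp2 fell by 3.16 on the log2 scale, Cubn fell by 2.89 and Slc34a1 fell by 2.74 (edgeR adjusted p = 0.000121, 3.80e-05 and 0.000749), or -3.87 for Lrp2 and -3.65 for Slc34a1 without IRI replicate 1, in a tissue whose summed epithelial markers were 2460 to 3063 FPKM in sham and 1878 to 3161 in IRI. Since these are bulk samples, fewer cells of a type and less RNA per cell cannot be told apart.

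Every one of the 10 tubulin genes had all of its IRI values above all of its sham values. FPKM, the count per exonic length, is scaled by library totals. Log2 fold changes were fitted to counts by edgeR with TMM factors, which put them lower by a median of 0.25 over all genes than library totals did. Of the 9 genes that passed the filter of at least 1 FPKM in 5 libraries (13324 genes did), 9 were called higher at an adjusted p under 0.05, beside 34.5% higher and 32.4% lower among all genes tested. Groups did not overlap, with IRI above sham, for 9 of these 9 and for 36.7% of all genes tested. The fold change was at least 2-fold in 7 of the 9, and in 12.2% of all genes. The median log2 fold change was 2.32, against 0.05 over all genes. The genes were chosen on this contrast, so nothing is read from these counts. With library totals in place of TMM factors, 66.8% of all calls were in the higher direction, against 51.6%.

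Markers of several other cell types moved beside the tubulin genes. Of 10 neutrophil markers, summing to 0.940 to 3.39 FPKM in sham and 20.8 to 108 in IRI, 4 were tested and all were higher. Retnlg, S100a8 and Csf3r were below 1 FPKM in every sham library, so these passed the filter through IRI alone. With no filter 10 of 10 were higher, and the share over all genes in that fit is not given here. S100a9, a calcium-binding protein of neutrophils, rose from 0.954 ± 0.361 to 26.1 ± 13.6 FPKM (SD, n = 5 each; log2 fold change 4.52 ± 0.45, edgeR adjusted p = 4.08e-06), while Ly6g, Ngp and Camp had 0 counts in sham. Of 6 tested macrophage markers (8 summing to 35.2 to 55.0 FPKM in sham and 42.3 to 93.7 in IRI), Cd68 rose from 2.48 ± 0.734 to 22.0 ± 2.19 FPKM, Csf1r fell from 11.1 ± 2.38 to 3.07 ± 0.945 FPKM (SD, n = 5 each; edgeR adjusted p = 1.34e-07 and 3.05e-06) and 4 were not called. Without IRI replicate 1, 3 were higher. Of 8 endothelial markers (104 to 154 FPKM in sham, 124 to 211 in IRI) 4 were higher, led by Cdh5 and Pecam1 (both 0.87), and 1 lower (Tek, -0.65), the last not called with library totals. Of 7 tested fibroblast and pericyte markers (8 summing to 44.0 to 57.8 FPKM in sham and 30.0 to 114 in IRI) 1 was higher (Pdgfrb, 1.08) and 1 lower (Dcn, -0.95), or 5 higher without IRI replicate 1. The 8 lymphocyte markers summed to 2.69 to 3.97 FPKM in sham and 0.810 to 1.40 in IRI, and none was tested. With no filter 6 of them were lower. The part of these cell types in the tubulin levels was not tested.

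**Figure D1:**
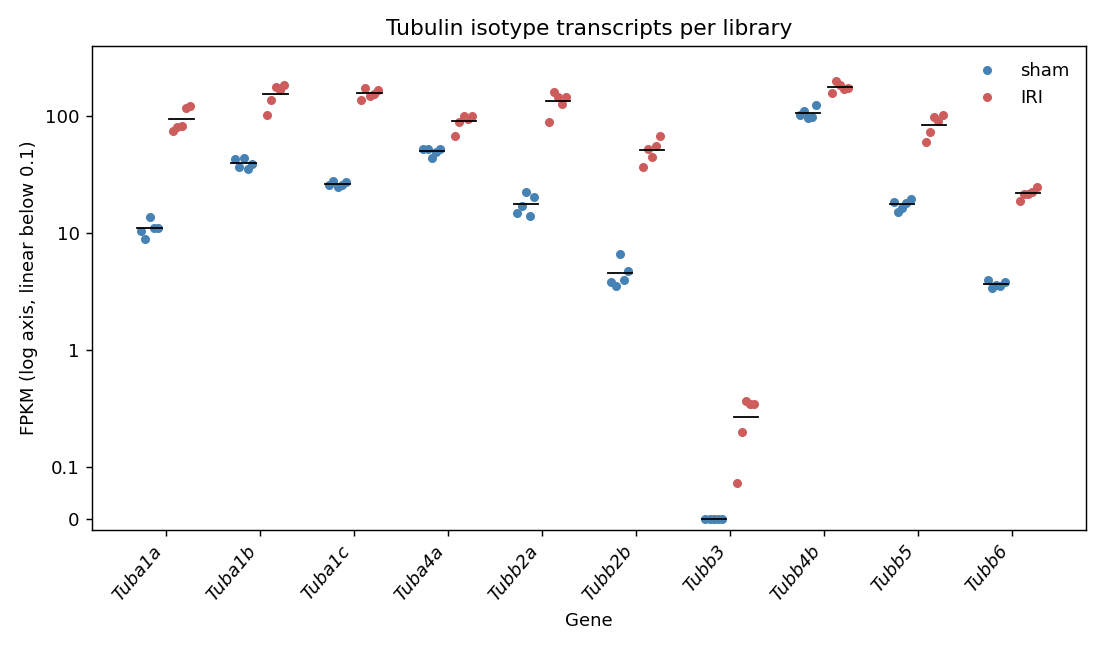
FPKM of each tubulin gene (x axis) in each library, sham in blue and IRI in red, with the group mean as a bar; the y axis is logarithmic above 0.1 FPKM and linear below. Tubb4b and Tuba4a are the highest of their chains in sham and move least, Tubb2b and Tuba1a have the largest fold changes of the 9 genes tested, and Tubb3 is at 0 in the 5 sham libraries.

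Tuba1a encodes the alpha-tubulin best known from postmitotic neurons. Its level was 10.5, 8.91, 13.7, 11.2 and 11.0 FPKM in sham replicates 1 to 5 and 75.2, 80.8, 83.2, 117 and 122 FPKM in IRI replicates 1 to 5. The lowest IRI library thus stood far above the highest sham library, sham replicate 3. Means were 11.0 ± 1.71 FPKM in sham and 95.6 ± 22.0 FPKM in IRI (SD, n = 5 each), and the log2 fold change was 2.86 ± 0.15 (± SE), the highest of the alpha genes.

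Tuba1b and Tuba1c are the broadly expressed alpha genes. Tuba1b was at 43.0, 36.7, 44.0, 35.3 and 38.8 FPKM in sham and 103, 138, 179, 168 and 186 FPKM in IRI. IRI replicate 1 was the low one, at 61.2% of the mean of the other 4. Means were 39.6 ± 3.81 FPKM in sham and 155 ± 34.3 FPKM in IRI (SD, n = 5 each), with a log2 fold change of 1.71 ± 0.13. Tuba1c had tighter groups, with 25.8, 28.2, 25.0, 25.6 and 27.6 FPKM in sham and 139, 174, 151, 156 and 167 FPKM in IRI. Its mean of 26.4 ± 1.38 FPKM in sham was followed by 157 ± 13.7 FPKM in IRI (SD, n = 5 each; log2 fold change 2.32 ± 0.09), so that in IRI it reached the level of Tuba1b.

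Tuba4a, which lacks the encoded tyrosine and is abundant in platelets and muscle, was the leading alpha gene of the sham kidney. It was at 52.2, 52.6, 44.2, 49.6 and 52.4 FPKM in sham and 68.6, 90.3, 100.3, 95.2 and 100.1 FPKM in IRI. Its response was the smallest of the alpha genes (0.60 ± 0.10 on the log2 scale), from 50.2 ± 3.58 to 90.9 ± 13.2 FPKM (SD, n = 5 each). The gene overlaps the kinase gene Stk16 over 1379 bases on the opposite strand, and 45.7% of the windows of its transcript occur in Stk16 transcripts as well. Stk16 moved the other way, from 24.2 to 12.0 FPKM (log2 fold change -1.26 ± 0.10, edgeR adjusted p = 1.07e-06). No source used here says whether counting was by strand, and reads of the shared stretch cannot be told apart without it. Beside Tuba4a, the 8 platelet markers summed to 2.68 to 4.56 FPKM in sham and 8.96 to 26.8 in IRI. Of the 3 that passed the filter, 2 were higher (Ppbp 4.49 ± 0.70, Pf4 2.69 ± 0.42) and 1 lower (Itga2b -0.81 ± 0.25, edgeR adjusted p = 0.000118, 0.000117 and 0.0116), the last not called with library totals (-0.56). Without sham replicate 5 the value for Ppbp was 5.48. Its sham values were at most 0.45 FPKM, so it passed the filter through IRI alone. With no filter, 2 of the 8 markers were higher, 1 was lower and 5 were not called. Their part in the levels of Tuba4a was not tested. Tubb1, the beta-tubulin of the platelet lineage, had 2 counts in all of sham and 5 in all of IRI.

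Among the beta genes, Tubb2a and Tubb2b encode near-identical proteins of class II. Tubb2a was at 14.9, 17.3, 22.7, 14.2 and 20.4 FPKM in sham and 89.2, 162, 146, 129 and 146 FPKM in IRI. Its means were 17.9 ± 3.63 FPKM in sham and 134 ± 27.8 FPKM in IRI (SD, n = 5 each), a log2 fold change of 2.65 ± 0.16. Tubb2b, best known from the developing brain, was lower throughout, at 3.84, 3.54, 6.69, 4.00 and 4.73 FPKM in sham and 37.0, 52.1, 45.0, 55.8 and 67.9 FPKM in IRI. Sham replicate 3 was the highest of the sham libraries for both genes, and IRI replicate 1 the lowest of the IRI libraries. Tubb2b had the largest fitted fold change of the 9 genes tested (3.24 ± 0.18), with means of 4.56 ± 1.27 FPKM in sham and 51.6 ± 11.6 FPKM in IRI (SD, n = 5 each).

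Tubb4b, a widely expressed class IV gene whose protein is also found in ciliary axonemes, had the highest mean FPKM of the tubulin genes in both groups, although in IRI its range overlapped that of Tuba1b, which was above it in IRI replicate 5. It was at 104, 111, 97.6, 99.7 and 125 FPKM in sham and 159, 200.1, 186, 170.4 and 175 FPKM in IRI. The groups did not overlap, but the fold change was the smallest of the 9 (0.48 ± 0.10 on the log2 scale). Means were 107 ± 11.1 FPKM in sham and 178 ± 15.6 FPKM in IRI (SD, n = 5 each). Markers of multiciliated cells, which build many axonemes, summed to 2.20 to 2.87 FPKM in sham and 3.04 to 4.10 in IRI over the 7 found in the table. Neither of the 2 that passed the filter (Rsph1 0.08, adjusted p = 0.826; Ccdc39 0.20, adjusted p = 0.148, edgeR) was called, though Ccdc39 was with library totals (0.46). With no filter, 1 of the 7 was higher, 2 were lower and 4 were not called. Foxj1 had 19 counts in sham and 139 in IRI (2.60 ± 0.56). Dnah5 had 125 and 21 (-2.75 ± 0.50) and Dnah9 had 101 and 34 (-1.79 ± 0.45). The part of these markers in the level of Tubb4b was not tested.

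Tubb5, the class I gene common to most cells, was at 18.7, 15.3, 16.6, 18.1 and 19.8 FPKM in sham and 59.8, 73.2, 99.3, 91.0 and 102 FPKM in IRI. Means were 17.7 ± 1.77 FPKM in sham and 85.1 ± 18.2 FPKM in IRI (SD, n = 5 each), a log2 fold change of 2.01 ± 0.13, and IRI replicates 1 and 2 were its low ones. Tubb6, of class V, was at 3.95, 3.40, 3.60, 3.51 and 3.83 FPKM in sham and 19.0, 21.7, 21.8, 22.8 and 24.9 FPKM in IRI. Its log2 fold change of 2.33 ± 0.08 had the smallest standard error of the set, with means of 3.66 ± 0.227 FPKM in sham and 22.0 ± 2.12 FPKM in IRI (SD, n = 5 each).

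Tubb3, of class III and widely used as a marker of neurons, was at the edge of detection. No count was seen in any sham library. IRI replicates 1 to 5 had 2, 5, 12, 11 and 11 counts, 41 in all, or 0.0700 to 0.370 FPKM. With the sham group as a whole set to a floor of 3 counts, the pooled IRI counts per library total were at least 13.5-fold higher, or 16.1-fold without IRI replicate 1. The gene did not pass the filter. Of the 16 neuron and nerve markers, 1 passed it: Uchl1, a neuronal ubiquitin hydrolase, rose from 2.19 ± 0.878 to 15.9 ± 4.06 FPKM (SD, n = 5 each; log2 fold change 2.60 ± 0.26, edgeR adjusted p = 3.53e-06). The 16 together were at 2.57 to 5.53 FPKM in sham and 12.6 to 23.0 in IRI, while the synaptic gene Snap25 and the catecholamine enzyme gene Th had 0 counts in all 10 libraries. Their part in the counts of Tubb3 was not tested.

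Summed over all 8 alpha genes of the table, alpha-tubulin was at 132, 127, 127, 122 and 130 FPKM in sham and 387, 484, 513, 537 and 577 FPKM in IRI. The 8 beta genes summed to 145, 150, 148, 140 and 174 FPKM in sham and 365, 510, 499, 470 and 518 FPKM in IRI. No IRI library overlapped the sham range, and IRI replicate 1 was the lowest of its group in both sums. The ratio of means was 3.91 for alpha and 3.12 for beta, or 4.13 and 3.30 without that library. Alpha and beta together took 0.0673% ± 0.00359 of sham counts and 0.221% ± 0.0293 of IRI counts (SD, n = 5 each). Since the protein is a dimer of both chains, their balance was also computed. Alpha over beta FPKM was 0.749 to 0.907 in sham and 0.948 to 1.14 in IRI, with no overlap. The ratio rests on the exonic lengths, 3701 bases for Tuba4a and 1803, 1875 and 2287 for Tuba1a, Tuba1b and Tuba1c. It was not computed from counts without division by length, so the lack of overlap holds for FPKM only. Per transcript rather than per count, alpha and beta made up 686 ± 28.4 TPM (transcripts scaled to a common total) among sham libraries and 2552 ± 370 TPM among IRI libraries.

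**Figure D2:**
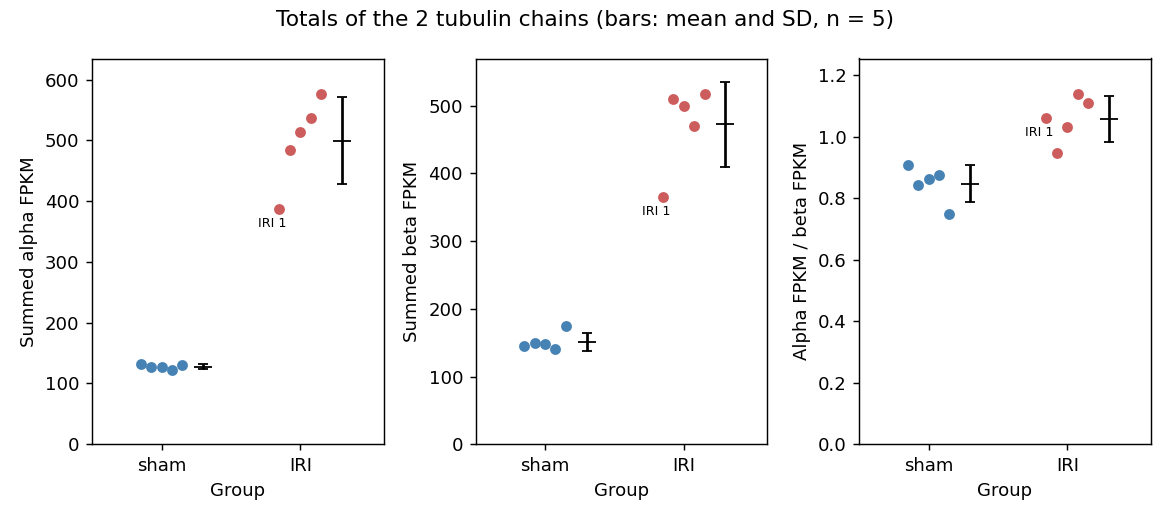
Summed alpha FPKM, summed beta FPKM and their ratio (y axes) for each library by group, with mean and SD (n = 5) beside the points. Sham libraries lie at 122 to 132 and 140 to 174 FPKM, IRI libraries at 387 to 577 and 365 to 518 FPKM, and IRI replicate 1 is the lowest IRI point in both sums but not in the ratio.

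Fold changes were unequal among isotypes, and the makeup of each chain differed between the groups. In sham, Tuba4a held 39.6, 41.5, 34.7, 40.5 and 40.2% of alpha FPKM, and in IRI 17.7, 18.7, 19.5, 17.7 and 17.4%. Its mean share went from 39.3% ± 2.67 to 18.2% ± 0.890 (SD, n = 5 each), although its own level was higher in IRI. Tuba1a went from 8.66% ± 1.39 to 19.1% ± 2.53 and Tuba1c from 20.7% ± 1.14 to 31.9% ± 3.71, without overlap. Tuba1b had 31.0% ± 2.52 in sham and 30.7% ± 3.21 in IRI and overlapping ranges. As 1 unit, Tuba1a, Tuba1b and Tuba1c held 58.2% to 64.9% of alpha in sham and 80.3% to 82.4% in IRI, and their sum was 5.29 times as high in IRI (77.0 to 408 FPKM). This sum needs no split between near-identical copies. If reads that fit several genes were left out of the counts, however, the sum and its share of alpha would be too low.

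Beta-tubulin showed the same kind of shift away from its leading gene. Tubb4b held 71.3, 73.5, 66.1, 71.4 and 71.9% of beta FPKM in sham and 43.6, 39.2, 37.3, 36.3 and 33.8% in IRI, a mean of 70.8% ± 2.78 and 38.1% ± 3.65. Tubb2a went in share from 11.8% ± 2.13 to 28.2% ± 2.66, Tubb2b from 3.02% ± 0.864 to 10.9% ± 1.61, Tubb5 from 11.7% ± 1.18 to 18.0% ± 2.48 and Tubb6 from 2.43% ± 0.208 to 4.69% ± 0.382 (SD, n = 5 each). None of these 5 genes had overlapping shares between groups. Tubb2a and Tubb2b as 1 unit went from 14.8% ± 2.92 to 39.1% ± 2.94, and their sum from 22.4 to 186 FPKM (8.29 times). Tubb2a contributed most to the gain in beta FPKM (36.3%), followed by Tubb4b (22.1%), Tubb5 (21.0%), Tubb2b (14.6%) and Tubb6 (5.72%). For alpha, Tuba1c gave 35.2%, Tuba1b 30.9%, Tuba1a 22.7% and Tuba4a 10.9% of the gain. Leaving out IRI replicate 1 moved the difference in share from -21.12 to -21.00 points for Tuba4a and from -32.77 to -34.15 for Tubb4b. These parts of the gain rest on FPKM and were not computed from counts. As shares of counts, with no division by exonic length, Tuba4a stood at 54.4% of alpha in sham and 29.0% in IRI and Tuba1b at 21.8% and 24.7%. Of beta counts, Tubb5 held 17.8% and 26.9% and Tubb2a 8.67% and 20.5%. Thus by counts Tubb5 (4662 in sham and 23047 in IRI) came before Tubb2a (2318 and 17313) in both groups. By counts Tuba4a (27190 over the 5 IRI libraries) came after Tuba1c (28893) and before Tuba1b (23556) and Tuba1a (14010).

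**Figure D3:**
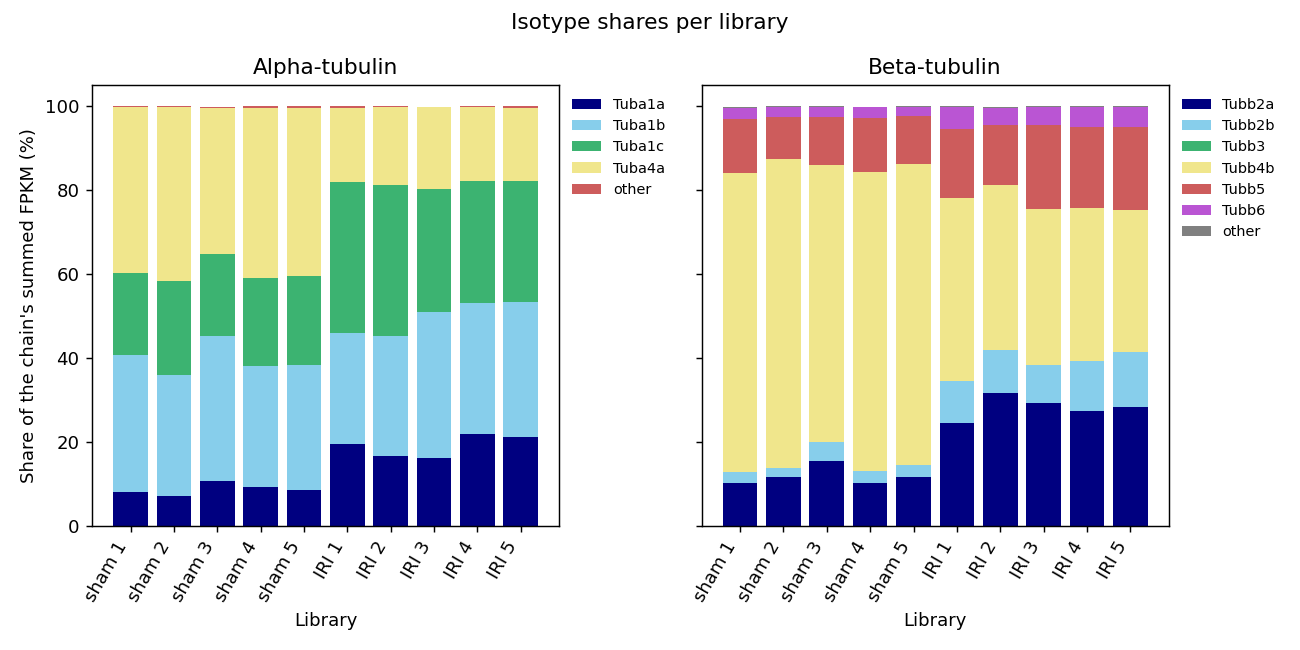
Share of each isotype in the summed FPKM of its chain (y axis, %) for each of the 10 libraries (x axis), alpha on the left and beta on the right, with the genes outside the list as "other". Tuba4a takes 34.7% to 41.5% of alpha in sham and 17.4% to 19.5% in IRI, and Tubb4b 66.1% to 73.5% of beta in sham and 33.8% to 43.6% in IRI.

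The order of levels (FPKM, per exonic length) also differed between the groups. In sham the alpha genes ranked Tuba4a, Tuba1b, Tuba1c and Tuba1a, and no neighbours in that order overlapped. In IRI the order of means was Tuba1c (157 FPKM), Tuba1b (155), Tuba1a (95.6) and Tuba4a (90.9), and each overlapped the next. The ratio of Tuba1c to Tuba4a was 0.493 to 0.565 in sham and 1.50 to 2.03 in IRI, below 1 in every sham library and above 1 in every IRI library. Among beta genes the sham order was Tubb4b, Tubb2a, Tubb5, Tubb2b and Tubb6, where Tubb2a overlapped Tubb5 and Tubb2b overlapped Tubb6. The IRI order of means was the same, with overlaps from Tubb4b down to Tubb2b and none between Tubb2b and Tubb6. Tubb2a nevertheless stayed below Tubb4b in every library, at 0.142 to 0.233 of its level in sham and 0.560 to 0.834 in IRI. Between near copies, Tuba1a was at 0.243 to 0.317 of Tuba1b in sham and 0.466 to 0.734 in IRI, and Tubb2b at 0.205 to 0.295 of Tubb2a in sham and 0.309 to 0.465 in IRI.

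The coefficient of variation (SD as a percent of the mean) was higher in IRI than in sham for 7 of the 9 tested genes, and for 5 of them without IRI replicate 1. All 10 genes had their lowest IRI value in IRI replicate 1, as did 37.3% of all tested genes and 40.0% of the genes called higher. In IRI the coefficient of variation was 14.5% for Tuba4a (sham 7.13%), or 4.94% without that library, and 20.7% for Tubb2a (sham 20.3%), or 9.33%. For Tuba1a it was 23.0% and 21.6%, and IRI replicates 4 and 5 (117 and 122 FPKM) were also apart from the other 3 (75.2 to 83.2).

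Tubulin genes outside the list were scarce. Tuba8, known from testis and muscle, was at 0.210 to 0.570 FPKM in sham and 0.740 to 1.68 in IRI, and Tubb4a, a brain gene, at 0.240 to 0.410 and 0.390 to 1.01. Neither passed the filter, and in a fit with no filter both were higher (Tuba8 1.10 ± 0.35, Tubb4a 1.06 ± 0.36, edgeR adjusted p = 0.0178 and 0.0251). Tuba3a had 7 counts over the 10 libraries, Tuba3b 1 and Tubal3 0. Of the tubulins of the centrosome and centriole, Tubg1 (gamma-tubulin, which nucleates microtubules) was at 7.90 to 9.79 FPKM in sham and 8.42 to 14.3 in IRI and was not called (0.09 ± 0.13, edgeR adjusted p = 0.529), though it was with library totals (0.35). Tubd1, delta-tubulin, fell by 1.16 ± 0.24 on the log2 scale (edgeR adjusted p = 0.00118), from 2.25 ± 0.685 to 1.20 ± 0.264 FPKM (SD, n = 5 each), with ranges that overlapped. Tubg2 and Tube1 did not reach the filter.

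Neighbouring genes were called at about the background rate. Of 113 other genes within 100 kb, 56 were tested, of which 19 (33.9%) were higher, 19 (33.9%) lower and 18 not called, beside 34.5% and 32.4% of all genes tested. With library totals 26 were higher and 13 lower. Their median log2 fold change was 0.00. Bphl, a hydrolase gene 200 bases from Tubb2a, fell from 94.7 to 11.8 FPKM (-3.23 ± 0.31, edgeR adjusted p = 3.17e-06). Glb1l, 3.42 kb from Tuba4a, fell by 1.88 ± 0.17, and Slc34a3, a phosphate transporter gene 4.20 kb from Tubb4b, fell by 2.38 ± 0.46 (edgeR adjusted p = 2.07e-06 and 0.000677). Without IRI replicate 1 the change of Slc34a3 was -3.22. Near Tubb5, higher genes were Flot1 at 1.13 kb (1.54 ± 0.11, edgeR adjusted p = 4.21e-07) and Ier3 at 11.0 kb (2.73 ± 0.14, edgeR adjusted p = 5.44e-08). Lmbr1l, 13.2 kb from Tuba1b, was not called (-0.01 ± 0.14, edgeR adjusted p = 0.957), and Def8, 1.51 kb from Tubb3, fell by 1.06 ± 0.16 (edgeR adjusted p = 9.88e-05).

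**Figure D4:**
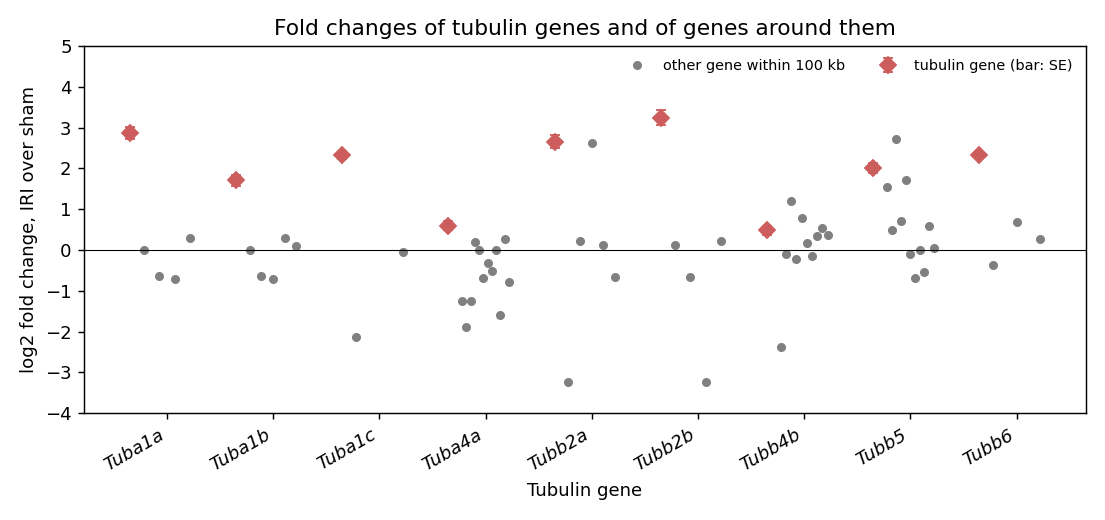
Log2 fold change, IRI over sham (y axis), of each of the 9 tested tubulin genes (red diamonds, bar ± SE) and of each other tested gene within 100 kb of it (grey points). Genes around Tuba4a lie mostly below 0, the point at -3.23 beside Tubb2a and Tubb2b is Bphl, and the highest grey point, 2.73 beside Tubb5, is Ier3.

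Promoter sequence was read from RefSeq (GRCm38.p6), which had an entry for 8 of the 10 genes. The 250 bases before the start are shown for a gene of large and a gene of small fold change, with CCAAT boxes (CCAAT, the site of the factor NF-Y) and TATA boxes (TATAAA) in capitals. Tubb2a is at chr13:34078009-34078258 and Tubb4b at chr2:25224703-25224952, both on the minus strand and written in the direction of transcription.
Tubb2a: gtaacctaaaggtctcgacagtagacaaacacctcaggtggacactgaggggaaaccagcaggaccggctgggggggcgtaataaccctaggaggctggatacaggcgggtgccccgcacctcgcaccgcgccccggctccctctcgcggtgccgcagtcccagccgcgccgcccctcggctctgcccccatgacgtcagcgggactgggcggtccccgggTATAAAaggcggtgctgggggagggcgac
Tubb4b: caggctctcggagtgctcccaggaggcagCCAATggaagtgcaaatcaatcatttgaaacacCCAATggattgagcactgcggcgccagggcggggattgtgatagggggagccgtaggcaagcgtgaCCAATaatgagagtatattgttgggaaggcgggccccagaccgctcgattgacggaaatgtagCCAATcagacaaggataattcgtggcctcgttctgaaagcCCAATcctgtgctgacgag
The Tubb4b window held 5 CCAAT boxes and no TATAAA, and the Tubb2a window TATAAA and no CCAAT. On either strand, CCAAT was found in 5 of 8 (Tuba1a, Tuba1c, Tubb3, Tubb4b and Tubb5) and in 33.8% of 32536 promoter windows of that length. GGGCGG, a GC box, was found in 6 of 8 and in 33.0% of all. TATAAA was in 1 of 8 (12.3% of all), as were the cAMP response element TGACGTCA, in Tubb2a (1.56% of all), and the TEAD motif GGAATG, in Tubb5 (12.6% of all). The AP-1 motif TGANTCA and the CArG box of serum response factor were in 0 of 8 (6.73% and 1.48% of all). These are matches of letters only.

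Genes that work with tubulin (folding, modifying, binding and motor proteins) and the scarce tubulins described above made up 16 lists. Of their 185 genes with a line in the deposited data, 139 were tested: 47 (33.8%) were higher, 45 (32.4%) lower and 47 not called. Their median log2 fold change was 0.05. All genes tested gave 34.5% higher, 32.4% lower and a median of 0.05. With library totals in place of TMM factors, 71 were higher and 27 lower.

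Folding comes first in the life of a tubulin chain. Of 7 tubulin folding cofactors, 3 were higher, 1 lower and 3 not called. Tbce (0.46 ± 0.09, edgeR adjusted p = 0.000983) and Tbcb (0.45 ± 0.13, 0.00687) were higher and the related Tbcel (-0.64 ± 0.09, 5.01e-05) lower. Prefoldin, which hands nascent tubulin and actin to the chaperonin, had 2 of 6 subunits higher (Pfdn4 0.52 ± 0.15, Vbp1 0.41 ± 0.08; edgeR adjusted p = 0.00756 and 0.000576) and 3 lower, among them Pfdn5 (-0.59 ± 0.12, adjusted p = 0.000668). With library totals 1 prefoldin gene was lower. Of the 12 autoregulation genes, 4 were higher, 1 lower and 7 not called, and with library totals 9 were higher. Ttc5 itself rose by 0.32 ± 0.09 (edgeR adjusted p = 0.00893), from 7.24 ± 0.818 to 10.8 ± 0.997 FPKM (SD, n = 5 each), and the adaptor Scaper was not called (0.10, adjusted p = 0.692). Cnot6 (0.51 ± 0.10) and Cnot3 (0.43 ± 0.08), subunits of the deadenylase that acts with them, rose as well (edgeR adjusted p = 0.000938 and 0.000628).

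Enzymes of the tyrosine cycle act on the C-terminal residue of alpha-tubulin. Ttl, the ligase that adds tyrosine, rose from 2.35 ± 0.267 to 4.60 ± 0.304 FPKM (0.72 ± 0.10, edgeR adjusted p = 4.79e-05), and Svbp, the partner of the enzymes that remove it, from 9.24 ± 1.18 to 18.4 ± 3.21 FPKM (0.74 ± 0.13, edgeR adjusted p = 0.000296; SD, n = 5 each). Of the removing enzymes, Vash1 (47 counts in sham and 72 in IRI) and Vash2 (36 and 261) were below the filter. A further one, Matcap1, had no matching line. With no filter 3 of the 4 genes of this list that could be fitted were higher, and Vash2 was at 2.57 ± 0.33. For the lysine 40 mark, the acetylase Atat1 fell by 0.53 ± 0.16 and the deacetylase Sirt2 fell by 0.60 ± 0.08 (edgeR adjusted p = 0.00902 and 2.53e-05), the former not called with library totals (-0.28). Hdac6, the main tubulin deacetylase, rose by 0.29 ± 0.11 (edgeR adjusted p = 0.0399). That call was lost without sham replicate 1, 3 or 4 or IRI replicate 1, 2 or 3 (log2 fold changes of 0.21 to 0.30), and with a replicate block (0.29).

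Enzymes that add glutamate or glycine to the tails had 6 members tested. The 4 lower ones included Ttll10 (-1.34 ± 0.23), Tpgs2 (-0.77 ± 0.12) and Tpgs1 (-0.48 ± 0.14; edgeR adjusted p = 0.000255, 8.69e-05 and 0.00909). With no filter 13 could be fitted, of which 1 was higher and 5 lower. With library totals 2 were higher and 2 lower, and Tpgs1 was at -0.22 and not called. Enzymes that remove glutamate had 3 of 3 lower, Agbl3 (-1.25 ± 0.11, adjusted p = 1.20e-06), Agbl5 (-0.70 ± 0.12, adjusted p = 0.000186) and Agtpbp1 (-0.45 ± 0.09, edgeR adjusted p = 0.000696), the last not called with library totals (-0.19).

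Proteins that bind the polymer went both ways. Of 11 binding and stabilising proteins, 5 were higher and 2 lower. Map4, the main microtubule-associated protein of non-neuronal cells, rose from 4.58 ± 0.447 to 13.3 ± 2.09 FPKM (1.28 ± 0.10), and Mapt, which encodes tau, fell from 28.8 ± 3.21 to 10.8 ± 2.20 FPKM (-1.67 ± 0.14; SD, n = 5 each; edgeR adjusted p = 8.12e-07 and 1.28e-06). With no filter 10 of 19 were higher and 3 lower. Of 9 plus-end proteins, 5 were higher and 2 lower, with Mapre1, encoding EB1, at 0.86 ± 0.08, Clasp1 at 0.83 ± 0.11 and Clip4 at -1.52 ± 0.23 (edgeR adjusted p = 3.25e-06, 4.64e-05 and 0.000116). Without sham replicate 4 or IRI replicate 5, 3 were higher, and without sham replicate 1 or 2, 1 was lower. Among 6 destabilising and severing proteins 1 was higher and 2 lower: the depolymerising kinesin Kif2a rose by 0.79 ± 0.10, and Katnal1 fell by 0.80 ± 0.13 and the dimer-binding Stmn1 fell by 0.73 ± 0.19 (edgeR adjusted p = 3.50e-05, 0.000178 and 0.00511). Library totals gave 3 higher. The call of Stmn1 was lost by limma on log2(FPKM + 0.1) (-0.47). Nucleation factors had 7 of 19 higher and 1 lower, with Haus3 (1.21 ± 0.17) and Haus6 (1.05 ± 0.14), subunits of augmin, and Nedd1 (0.56 ± 0.10) leading (edgeR adjusted p = 6.33e-05, 3.75e-05 and 0.000372). With library totals 11 were higher and 0 lower. The 1 lower call was also lost by limma and without sham replicate 1, 2, 4 or 5 or IRI replicate 1 (0 lower in each).

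Motors along microtubules also divided. Of 18 transport kinesin genes 7 were higher and 5 lower. Klc3, a light chain, rose by 1.60 ± 0.29 (edgeR adjusted p = 0.000385). It was at most 0.76 FPKM in sham and so passed the filter through IRI alone. Kif12, a kinesin abundant in kidney epithelium, fell from 92.5 ± 17.0 to 43.6 ± 11.2 FPKM (-1.35 ± 0.18) and Klc4 fell by 1.22 ± 0.14 (SD, n = 5 each; edgeR adjusted p = 4.13e-05 and 1.38e-05). Cytoplasmic dynein and dynactin had 8 of 20 higher and 6 lower, with Dync1i2 at 0.99 ± 0.09, Dync1li2 at 0.76 ± 0.09 and Dynll2 at -0.89 ± 0.10 (edgeR adjusted p = 2.31e-06, 1.79e-05 and 7.29e-06). With library totals 13 were higher and 2 lower, and 3 were lower without sham replicate 1 or 2 or IRI replicate 2, 4 or 5.

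Intraflagellar transport, which moves tubulin into the cilium, had mostly decreases: 12 of 15 tested genes were lower, 2 higher and 1 not called, with a median of -0.71. Ift122 fell from 5.63 ± 0.642 to 1.41 ± 0.346 FPKM (-2.24 ± 0.18), Ift172 fell by 1.34 ± 0.12 and Ift80 fell by 1.28 ± 0.11 (SD, n = 5 each; edgeR adjusted p = 7.48e-07, 1.46e-06 and 1.39e-06). With library totals 8 were lower and 2 higher. Among the other filaments, 12 of 13 actin and intermediate filament genes were higher and 1 was not called (median 1.15), with the actin-binding peptide gene Tmsb10 (38.3 ± 3.71 to 211 ± 53.3 FPKM, 2.20 ± 0.15), the intermediate filament gene Vim (2.00 ± 0.15) and the smooth muscle actin gene Acta2 (1.96 ± 0.22) leading (edgeR adjusted p = 3.05e-07, 5.36e-07 and 1.04e-05). Cell division also uses tubulin: of 10 cycling cell markers 4 were tested, of which Plk1 (0.58 ± 0.21) and Aurka (0.81) were higher and 2 not called (edgeR adjusted p = 0.0269 and 0.00165 for the called ones). Plk1 was not called without sham replicate 1 (0.57) or IRI replicate 5 (0.54), nor with no filter (0.60). Aurka was at most 0.69 FPKM in sham and passed the filter through IRI alone. Plk1 reached 1 FPKM in sham only in replicate 5 (1.18). With no filter 4 of the 10 markers were higher, and with a filter of at least 10 counts in 5 libraries 6 were higher. The markers summed to 3.73 to 6.43 FPKM in sham and 5.95 to 13.4 in IRI, and their part in the tubulin levels was not tested.

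**Figure D5:**
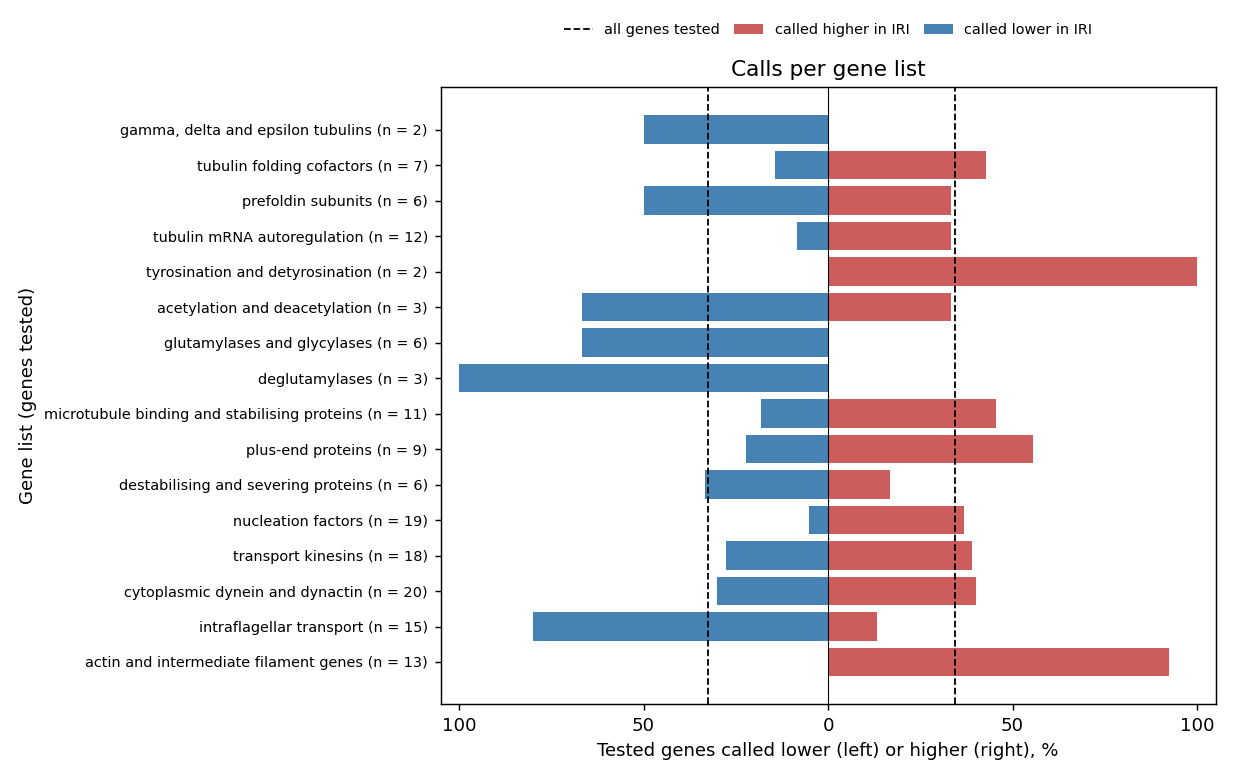
Percent of the tested genes of each list called lower (left, blue) or higher (right, red) in IRI, with dashed lines at the shares over all genes tested (32.4% lower, 34.5% higher). Intraflagellar transport extends farthest left among lists of over 10 genes, actin and intermediate filament genes farthest right, and lists of 2 or 3 genes rest on few values.

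The genes whose profile over the 10 libraries was most like that of the summed alpha and beta FPKM were sought among 7219 tested genes with a mean of at least 5 FPKM. Likeness was the root mean square difference of centred log2(FPKM + 1) values. Jpt1 was nearest (0.082), followed by the 14-3-3 gene Ywhah (0.087), the chloride intracellular channel gene Clic1 (0.088), the actin-binding gene Tagln2 (0.095) and Serpinb6b (0.115). Clic1, for example, went from 48.7 ± 2.28 to 183 ± 18.5 FPKM and Jpt1 from 6.96 ± 0.577 to 25.1 ± 3.79 (SD, n = 5 each). Of the tubulin genes themselves, Tuba1b (0.155) was nearest to the sum, and Tubb2b (0.759) and Tubb3 (0.730) were farthest from it. Tubb3, at most 0.370 FPKM, lay under the minimum of 5 FPKM used in the search. With 1 added to each FPKM its values stay near 0 in both groups, so its distance says little about its profile.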

How the data were processed

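Messenger RNA of mouse kidney was sequenced in 10 libraries as paired reads of 150 bases after poly(A) selection, per the labels' protocols. Gene counts (whole numbers), FPKM, exonic lengths and coordinates come from 1 table that the authors deposited. The submitters' processing notes name HTSeq 0.6.1, HISAT2 2.0.1, Cutadapt 1.9.1 and GRCm39, without roles or settings. Every deposited FPKM value could be recomputed from count, exonic length and library total (tolerance 0.005 units or 0.1%). Library totals of 13147899 to 18603272 limit the precision, and the floor of 3 counts covers counting error only.

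Counts of genes with at least 1 FPKM in 5 libraries were tested with edgeR 4.0.16 (R 4.3.3; quasi-likelihood test, TMM factors, Benjamini-Hochberg adjustment over 13324 genes, calls at an adjusted p under 0.05). A gene below 1 FPKM in 1 group could pass this filter through the other group alone. The script was tested on simulated counts. Shares and totals were computed from FPKM. The 10 genes and all lists were chosen with earlier results of these data known. Of 202 list symbols 4, and 1 marker, had no matching line. Symbols were matched by identifier (52083 of 55359 genes). Named genes are the tubulins, up to 3 called genes of largest fold change per list with a mean of at least 1 FPKM, all genes of the tyrosine and acetylation lists with Ttc5 and Scaper, up to 3 nearest neighbours per gene and the 5 most alike. Ier3, Aurka, Rsph1, Ccdc39, Foxj1, Dnah5, Dnah9, Snap25, Th, Csf3r, Ly6g, Ngp and Camp were named after their values were seen. Sums of near-identical copies were also added then. Alternatives were library totals, DESeq2 1.42.0, limma 3.58.1, other filters, a replicate block, TPM, shares of counts, and leaving out each library. GRCm38 was used for sequence only, with no conversion of coordinates. The coding ends of 3 alpha genes are not reported here.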

Additional observations from a re-analysis of the deposited data

Results flagged for a closer look

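Of 148 groups of 5 libraries examined, 8 had 1 library far from the other 4 (a gap over 0.71 of the range), and chance gives about 1 in 20. Both tubulin shares concerned were in sham replicate 3, where Tuba4a held 34.7% of alpha FPKM against 39.6% to 41.5% in the other sham libraries and Tubb2b held 4.53% of beta FPKM against 2.35% to 2.86%. Among tubulin partners, Ttc5 was at 8.69 FPKM in sham replicate 5 (others 6.72 to 6.99), Clip4 at 3.64 in sham replicate 2 (2.12 to 2.50) and Clasp1 at 1.24 in sham replicate 3 (0.870 to 0.970). In IRI, Tpgs2 was at 2.11 FPKM in replicate 5 (others 1.49 to 1.63) and Nedd1 at 6.34 in replicate 3 (7.57 to 7.83). Slc34a1 was at 584 FPKM in IRI replicate 1 (others 72.0 to 193).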

How the results depend on the processing

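The 9 tested tubulin genes kept a positive log2 fold change under every alternative run, from 0.44 to 0.73 for Tubb4b and from 3.14 to 3.50 for Tubb2b at the ends of the set. Scaled by TMM factors in place of library totals, the alpha sum was 3.27 times and the beta sum 2.61 times as high in IRI as in sham. Called genes of the microtubule lists together numbered 71 higher and 27 lower with library totals, and 28 or 27 lower by limma on log2(FPKM + 1) or log2(FPKM + 0.1), against 47 and 45. No called fold change of a named gene turned its direction. The same replicate numbers did not mark related libraries (correlations of deviations 0.09, -0.16, -0.28, 0.01 and -0.16), and with a replicate block 4221 genes were higher and 4097 lower, with 44 and 39 in the microtubule lists. The split between near-identical copies, the use of strand at Tuba4a and the few counts of Tubb3 limit these values, and depth limits the genes under the filter.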
